A study of Mus musculus with 3 samples.

Results

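The autophagy genes described here are 40 mouse genes for the core machinery of autophagosome formation, its cargo receptors, a pair of transcription factors and a fusion protein. They were picked by symbol and not by a cut on their measured values, but with earlier results of these data known. All 40 were found among the 55536 annotated genes of the deposited tables, and all 40 had a mean of at least 1 TPM (a transcript abundance per length, scaled so that each library has the same total). No member was therefore lost to the filter on low values. The cells were macrophages grown from the bone marrow of C57BL/6J mice and treated for 60 min with 100 ng/ml of lipid A, the membrane anchor of bacterial lipopolysaccharide and a ligand of Toll-like receptor 4. Their cytosolic RNA was depleted of ribosomal RNA and sequenced from 1 µg per library. The 3 libraries form 1 group and are called replicates 1, 2 and 3. No untreated cells and no nuclear RNA were analysed here, so the values are levels in the stimulated cytosol and no response to lipid A was measured. Each library has its own biosample entry, but a shared donor entry names only the strain, and the p-values below reflect only how these 3 libraries scatter, which could be purely technical.

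Autophagy encloses cytoplasm, organelles or microbes in a double membrane, the autophagosome, which fuses with lysosomes. A kinase complex around ULK1 starts the process, a lipid kinase complex around Beclin 1 marks the membrane, and a pair of ubiquitin-like conjugation systems attaches ATG8 proteins such as LC3 and GABARAP to its lipids. In macrophages the same machinery also degrades intracellular bacteria and attaches LC3 to phagosomes, and it limits inflammasome activity.

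The libraries held 64110863, 72057046 and 69345880 expected counts in replicates 1, 2 and 3. The median protein-coding gene of at least 1 TPM stood at 9.08, 5.76 and 6.86 TPM, and all 40 autophagy genes had their highest TPM in replicate 1. Levels are therefore also given on the log2(TPM + 0.1) scale minus the same library's median protein-coding gene, where the members' highest value lay in replicate 1 for 13 genes, in replicate 2 for 19 and in replicate 3 for 8. The macrophage markers Lyz2 (5032 ± 2089 TPM, mean ± SD, n = 3), Cd68 (693 ± 143) and Cd14 (485 ± 77.3) led a list of 10, all above 1 TPM. Of 49 markers of other cell types, 7 reached 1 TPM, namely S100a9 (15.9), S100a8 (10.1), Mmp8 (4.52) and Ngp (1.92 TPM) of neutrophils, Ighm (3.21) of B cells, Batf3 (1.25) of dendritic cells and Kdr (2.28 TPM) of endothelium. The summed macrophage list ranged from 4868 to 9581 TPM over the libraries, the neutrophil list from 29.7 to 38.9 TPM, the T and NK cell list from 0.040 to 0.10 TPM, and the part of other cells in the levels below was not tested. The nuclear-retained RNAs Malat1 and Neat1 were present in the cytosolic fraction at 417, 122 and 323 TPM and at 38.9, 12.4 and 35.9 TPM in replicates 1, 2 and 3. Of the other 4 RNAs on that list, named after their values were seen, Rn7sk stood at 36384, 35222 and 61838 TPM, highest in replicate 3, Xist at 8.81, 0.76 and 2.85 TPM, Kcnq1ot1 at no more than 0.080 TPM, and Meg3 was listed at 0.

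As a set, the autophagy genes sat at the middle of the macrophage transcriptome, with Sqstm1 and the ATG8 gene Gabarap at the top and Atg14, Atg16l2, Atg10, Wipi1 and Atg4d at the bottom. Together they took 0.349, 0.356 and 0.325% of the counts in replicates 1, 2 and 3. Their median level was -0.02 relative to the median gene on the log2 scale, against 0.00 over all 9123 protein-coding genes tested, and their median TPM was 7.13, against 7.24. Of the 40, 23 (57.5%) lay within 2-fold of the median gene on either side, against 42.5% of all tested genes. The SD of the levels was 1.63 on the log2 scale for the autophagy genes and 1.83 for all genes. In these bulk samples, fewer cells carrying a transcript and less of it per cell cannot be told apart.

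Each gene was tested for a level more than 2-fold from the median gene with limma's moderated test against a band of 1 on the log2 scale, adjusted over all 9123 genes by the Benjamini-Hochberg method at 0.05. The test called 8 autophagy genes above the band and 5 below, and 27 were not called. Over all genes tested, 26.3% were above and 24.5% below. A gene that was not called can still lie outside the band. Without a filter on low values the median gene shifts by -1.57 on the log2 scale, and 26 members were called above and 0 below. Of all 15088 genes tested without the filter, 5403 were above and 5929 below. A minimum of 5 TPM shifts the median gene by 0.93 and left 4 members called above. Of all 5620 genes tested with it, 1254 were above and 491 below. That minimum removes all 5 genes called below, and 5 others, Atg4c, Atg9a, Ambra1, Atg4b and Pik3c3, were then called below in their place. The second deposited transcript table, a separate quantification, put 10 members below, adding Atg2a, Atg2b, Atg4a, Atg101, Stx17 and Atg16l1 and leaving Atg14 untested. Every member's TPM was lower there, with means of 178 against 407 TPM for Sqstm1 and 1.59 against 3.76 TPM for Atg101. The same minimum of 1 TPM was therefore stricter for the members in that quantification.

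**Figure D1:**
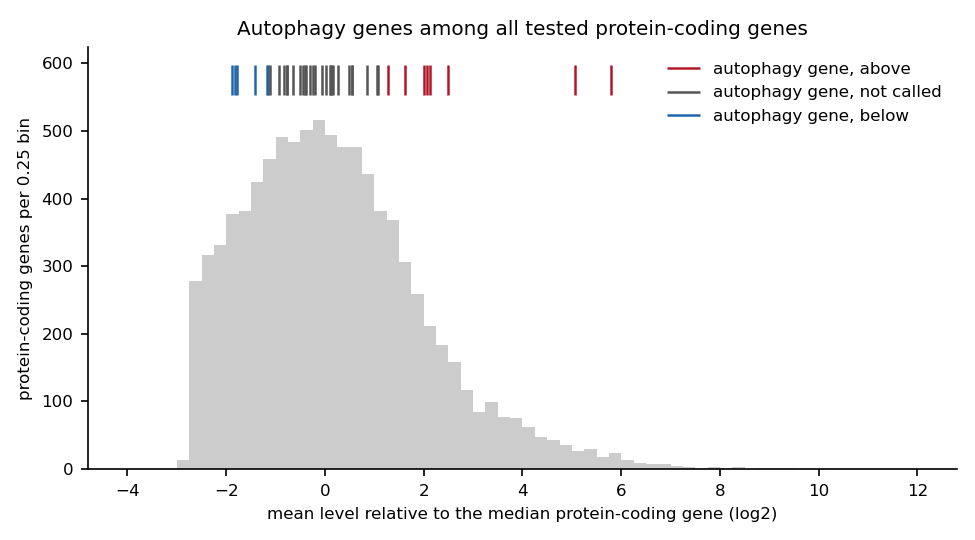
Mean level of the 40 autophagy genes (vertical ticks, coloured by limma's call) above the histogram of the 9123 tested protein-coding genes in bins of 0.25. The horizontal axis is the log2 level relative to the median protein-coding gene and the vertical axis counts genes per bin. Most ticks lie within 1 of zero, 5 are called below, and Gabarap and Sqstm1 stand apart at 5.07 and 5.80.

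**Figure D2:**
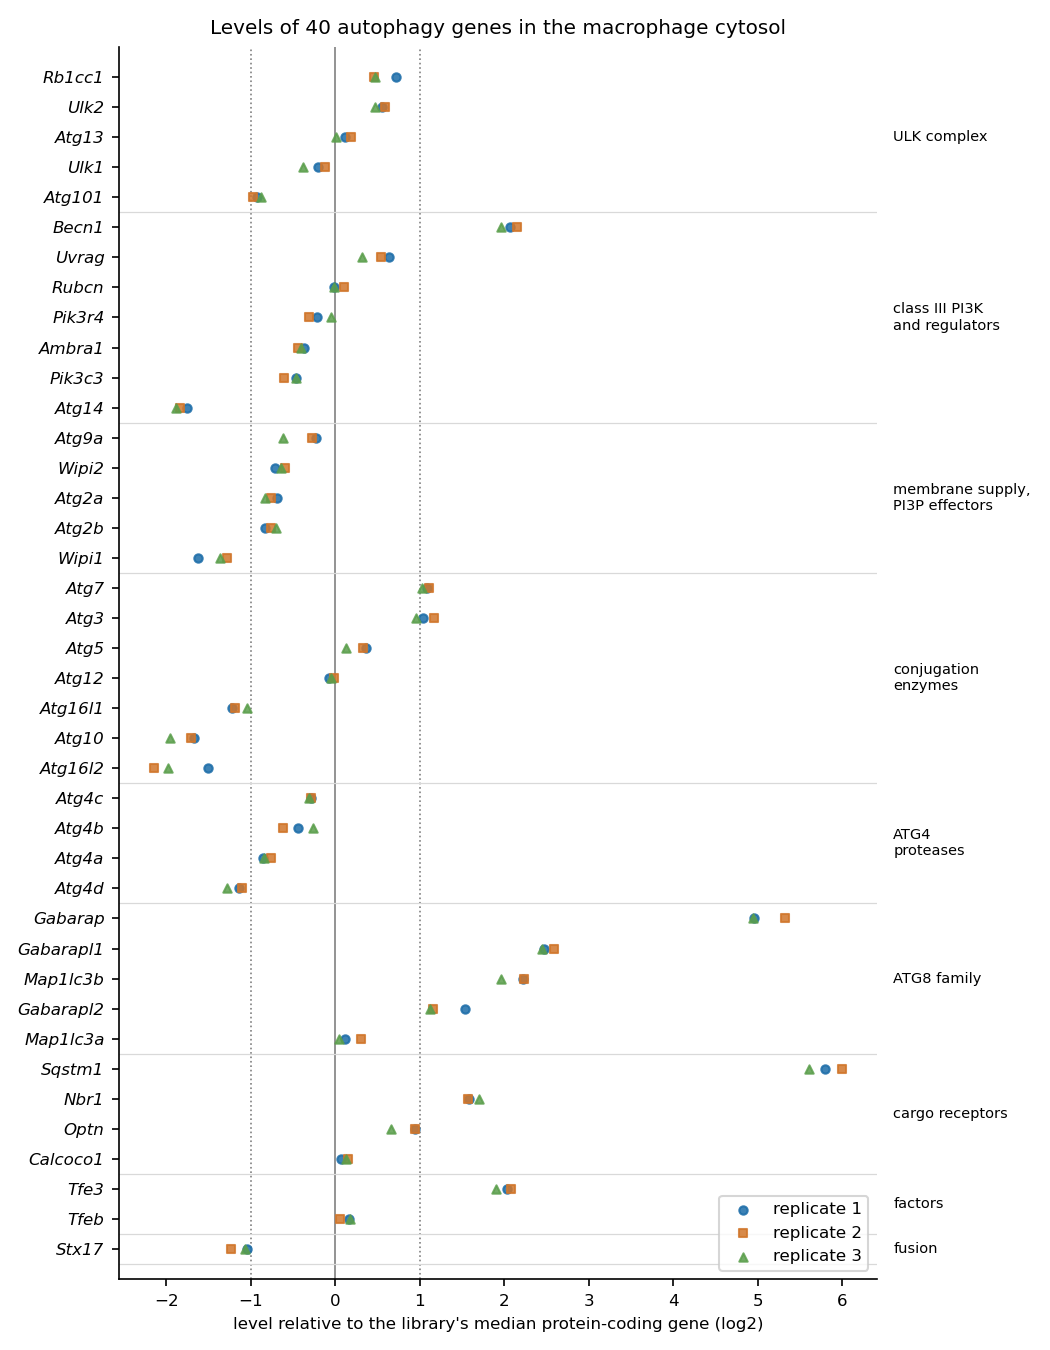
Level of each autophagy gene in each of the 3 libraries (points, by replicate), relative to the library's median protein-coding gene on the log2 scale, grouped by role. Dotted lines mark the 2-fold band. ATG8 genes and cargo receptors lie at or right of zero, while the membrane supply genes and ATG4 proteases lie left of it.

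None of the 5 genes of the ULK complex, which starts autophagosome formation downstream of mTORC1 and AMPK, was called above or below. The highest was Rb1cc1, which encodes the scaffold FIP200, at 14.98, 7.96 and 9.50 TPM in replicates 1, 2 and 3. Atg101, whose protein stabilises ATG13, was lowest at 4.72, 2.88 and 3.69 TPM. The kinase gene Ulk2 stood at 13.4, 8.74 and 9.54 TPM and its paralog Ulk1 at 7.85, 5.30 and 5.22 TPM. On the log2 scale relative to the median gene, the 5 levels ran from -0.93 (Atg101) to 0.55 (Rb1cc1), with Atg13, the bridging subunit, at 0.10. The libraries of Ulk1 and Ulk2 did not overlap relative to the median gene, with Ulk1 between -0.39 and -0.12 and Ulk2 between 0.47 and 0.59.

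In the Beclin 1 and class III lipid kinase group, 1 of 7 genes was called above the band and 1 below it. Becn1 encodes Beclin 1, the scaffold of the complexes, and stood at 38.5, 26.0 and 27.1 TPM in replicates 1, 2 and 3, a level of 2.06 ± 0.06 (SE) on the log2 scale (limma adjusted p = 8.0e-06). Most of that value came from transcripts not annotated protein-coding, as the transcript classes further on show, and the transcripts annotated protein-coding alone gave -0.90, which was not called. Atg14, which directs the complex to autophagosome formation, was the lowest of the 40 by mean TPM, at 2.61, 1.54 and 1.78 TPM and a level of -1.83 ± 0.07 (SE, limma adjusted p = 3.4e-05). Uvrag, which takes the place of ATG14 in another complex acting on endosomes, stood at 14.1, 8.39 and 8.53 TPM. Its exons share 1589 bases with the antisense gene Gm45187 (0.0367 TPM). Stretches of Uvrag also match other expressed genes at 95% identity or more, among them Txndc16 (9.01 TPM) and Tsc2 (8.23 TPM). A part of the Uvrag reads could therefore be uncertain. The catalytic subunit gene Pik3c3, which encodes VPS34, and Pik3r4, which encodes its regulatory partner VPS15, had levels of -0.51 and -0.19. Rubcn, the gene of the inhibitor Rubicon that is also needed for LC3-associated phagocytosis, was at 0.02, and Ambra1, a Beclin 1 partner, at -0.41. These 4 were not called.

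The 5 genes of membrane supply and of effectors of the lipid PI3P all lay below the median gene, 1 of them beyond the band. Wipi1, a PI3P-binding protein gene, had 2.87, 2.31 and 2.61 TPM and a level of -1.42 ± 0.08 (SE, limma adjusted p = 0.0026). Its levels in the 3 libraries, from -1.63 to -1.28, did not overlap those of its paralog Wipi2, from -0.71 to -0.59, which had 5.50, 3.78 and 4.34 TPM. Wipi2 encodes the form that recruits ATG16L1 to the membrane. Atg9a, for the lipid scramblase carried on small vesicles, was the highest of the group at 7.70, 4.73 and 4.43 TPM and was not called (-0.38). The lipid transfer protein genes Atg2a (5.58, 3.37 and 3.81 TPM) and Atg2b (5.05, 3.37 and 4.18 TPM) changed order between libraries. Atg2b shares 383 exonic bases with Gskip on the opposite strand, and the sources used here do not say whether counting was stranded.

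Conjugation enzymes, which build the ATG12-ATG5-ATG16L1 complex and attach ATG8 proteins to lipid, spanned 2.01 to 15.3 TPM. Of the 7, 2 were called below the band and 0 above it. Atg7, for the E1-like activating enzyme, stood at 19.4, 12.6 and 14.0 TPM (level 1.07 ± 0.06, SE, not called, limma adjusted p = 0.22), and Atg3, for the E2-like enzyme of the LC3 branch, at 18.7, 13.1 and 13.4 TPM (1.05 ± 0.06, not called, limma adjusted p = 0.41). With protein-coding transcripts alone Atg7 was called above (1.17, limma adjusted p = 0.019). Its mean was then 15.2 TPM, against 15.3 TPM for the whole gene, while the median gene shifts by -0.11 on the log2 scale. Atg10 encodes the other E2-like enzyme, which joins ATG12 to ATG5, and stood at 2.77, 1.69 and 1.70 TPM with a level of -1.78 ± 0.08 (SE, limma adjusted p = 0.00010). In every library Atg10 was thus lower than Atg3 and Atg7. Atg5 and Atg12, the genes of the conjugated pair, lay near the median gene at 0.27 and -0.05.

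The ATG16L genes were both low. Atg16l1, whose protein sets the site of LC3 attachment, had 3.82, 2.47 and 3.26 TPM and a level of -1.16 ± 0.06 (SE), just outside the threshold (limma adjusted p = 0.052). It was called below without replicate 3 (limma adjusted p = 0.041), with the second table (-1.55), with a pseudocount of 0.01, with rescaled TPM and with TMM-scaled counts. It was not called with a pseudocount of 1, without replicate 1 or without replicate 2. Nor was it called with protein-coding transcripts alone (-1.08, limma adjusted p = 0.25) or with no filter (0.41). Atg16l2, its paralog, had 3.14, 1.22 and 1.67 TPM and a level of -1.88 ± 0.13 (SE, limma adjusted p = 0.00058). Its levels were -1.50, -2.15 and -1.98 in replicates 1, 2 and 3, the widest range of the 40. The second table gave Atg16l2 higher than Atg16l1 in replicate 1 and lower in replicates 2 and 3.

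Promoter sequence was read for the genes with an entry in RefSeq's table of GRCm38.p6, which matched 34 of the 40 with 41 promoters of 300 bases, 250 before the start site and 50 after it. TFEB and TFE3, both members, bind E-boxes, so the 6 letters CACGTG, which read the same on both strands, were searched. They occur in 7.17% of all 32544 promoters and in 5 of the members' 41, 1 each of Atg3, Atg5, Atg7, Rubcn and Atg14. The Atg7 entry starts 27999 bases inside the annotated gene and 9066 bases from the nearest annotated transcript start, and its sequence is not shown. Rubcn has a pair of entries, and the E-box is in the internal one, whose start site lies 9400 bases inside the gene and 15 bases upstream of the start of its leading transcript, Rubcn-201, while the entry near the gene start has 0. The Atg14 entry starts 2215 bases inside the gene, at the start of its leading transcript, and the start sites of Atg3 and Atg5 lie 44 bases inside and 19 bases upstream of the annotated gene starts. The longer form TCACGTGA, which contains the E-box, occurs in 0.983% of promoters and among members only in Atg3. The letters TGACNNNGC, the core of the site bound by NRF2, were searched on both strands and occur in 12.4% of promoters and in those of Atg13, Ulk2 and Map1lc3b. A match is a description of the letters and was not tested as a binding site. Shown are the 250 bases before the start site of the conjugation enzyme genes Atg3 (chr16:45158579-45158828, plus strand) and Atg5 (chr10:44268089-44268338, plus strand), and of the most abundant member, Sqstm1 (chr11:50210821-50211070, minus strand), in which neither set of letters was found. Capitals mark the E-box, which begins 94 and 71 bases before the start site in Atg3 and 14 in Atg5.
Atg3: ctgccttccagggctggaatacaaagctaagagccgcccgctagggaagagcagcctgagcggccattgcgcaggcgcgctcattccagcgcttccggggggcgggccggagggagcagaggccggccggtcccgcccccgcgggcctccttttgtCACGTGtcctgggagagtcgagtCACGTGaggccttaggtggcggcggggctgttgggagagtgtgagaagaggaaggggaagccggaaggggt
Atg5: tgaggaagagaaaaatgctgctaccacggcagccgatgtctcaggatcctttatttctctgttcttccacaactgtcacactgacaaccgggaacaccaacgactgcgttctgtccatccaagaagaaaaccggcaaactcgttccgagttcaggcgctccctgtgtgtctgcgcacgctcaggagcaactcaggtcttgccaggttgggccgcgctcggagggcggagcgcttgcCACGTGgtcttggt
Sqstm1: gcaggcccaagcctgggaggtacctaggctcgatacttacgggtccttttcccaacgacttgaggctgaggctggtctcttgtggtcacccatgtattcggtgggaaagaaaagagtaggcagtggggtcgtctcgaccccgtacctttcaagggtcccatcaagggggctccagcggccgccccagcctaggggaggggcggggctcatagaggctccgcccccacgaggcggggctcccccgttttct
Atg3 and Atg5 had unequal levels, at 1.05 and 0.27. Sqstm1, without the letters, was the highest of the 40 at 5.80, and Atg14, with an E-box that begins 1 base before its entry's start site, was at -1.83. Whether levels go with the letters was not tested.

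The 4 ATG4 proteases, which trim ATG8 proteins for conjugation and later release them from lipid, all lay below the median gene. Only Atg4d was called, with 4.08, 2.62 and 2.76 TPM and a level of -1.18 ± 0.07 (SE, limma adjusted p = 0.036). The call was lost without replicate 2 (limma adjusted p = 0.094) and without replicate 3 (limma adjusted p = 0.17). Atg4c was highest at 7.42, 4.70 and 5.50 TPM, followed by Atg4b, the main processing enzyme for LC3, at 6.67, 3.72 and 5.69 TPM. Atg4a stood at 4.96, 3.37 and 3.77 TPM. A near copy, Atg4a-ps, shares 99.3% of 2115 aligned bases with Atg4a, and it was given 0.0233 TPM. Exons of Atg4d and Kri1 overlap by 1405 bases on opposite strands, and Kri1 stood at 5.83 TPM, so the split of reads between them is uncertain.

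The ATG8 family, the ubiquitin-like proteins that decorate the autophagosome and bind cargo receptors, stood high in the cytosol. The test called 4 of its 5 genes above the band. Gabarap (ENSMUSG00000018567.14, chromosome 11, 69991143 to 69994951 of GRCm38) had 285, 233 and 214 TPM in replicates 1, 2 and 3, a level of 5.07 ± 0.10 (SE, limma adjusted p = 2.4e-07) and 33.6 times the median gene. Gabarapl1 had 50.7, 35.2 and 37.9 TPM (level 2.50 ± 0.06, SE, limma adjusted p = 1.7e-06). Map1lc3b, which encodes LC3B, the usual marker of autophagosomes, had 42.6, 27.4 and 26.9 TPM (2.14 ± 0.08, SE, limma adjusted p = 1.2e-05). In each library Gabarap exceeded the next member of the family by more than the spread between libraries. Gabarapl2, which encodes GATE-16, had 26.5, 13.0 and 15.0 TPM and a level of 1.27 ± 0.09 (SE, limma adjusted p = 0.026), highest in replicate 1. Without replicate 1 it was at 1.09 and not called (limma adjusted p = 0.26), and it was not called with the second table either (limma adjusted p = 0.28). Map1lc3a, which encodes LC3A, was the only one not called, at 9.82, 7.15 and 7.08 TPM (0.15). Processed pseudogenes share 96.5 to 99.7% of the aligned bases with Gabarapl2 or Map1lc3b, and the most abundant of them, Gm6055, was given 0.613 TPM, so a small part of these reads is uncertain.

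Among 4 cargo receptor genes, 2 were called above the band and 0 below it. Sqstm1 (ENSMUSG00000015837.15, chromosome 11, 50199366 to 50210827 of GRCm38) encodes p62, which links ubiquitinated cargo to LC3 and is also a signalling scaffold and an NRF2 target gene. It had 508, 374 and 339 TPM in replicates 1, 2 and 3, a level of 5.80 ± 0.11 (SE, limma adjusted p = 2.1e-07), and was 55.6 times the median gene. Sqstm1 was above Gabarap in each library, by 0.73 ± 0.09 (SD, n = 3) on the log2 scale. Nbr1, a receptor that works with p62, had 27.4, 17.3 and 22.5 TPM (1.62 ± 0.06, SE, limma adjusted p = 6.7e-05), but with the second table it was not called (1.11, limma adjusted p = 0.17). Optn, for the receptor optineurin that acts in the removal of bacteria and mitochondria, had 17.6, 11.1 and 10.9 TPM and was not called (0.85). Calcoco1, a receptor for the endoplasmic reticulum and Golgi, was lowest at 9.49, 6.40 and 7.48 TPM (0.11).

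The transcription factor genes split by level. Tfe3 had 37.4, 24.6 and 26.0 TPM and was above the median gene (2.00 ± 0.06, SE, limma adjusted p = 9.3e-06). Tfeb, whose protein is its close relative and a regulator of lysosome and autophagy genes, had 10.2, 5.99 and 7.74 TPM and was not called (0.13). The syntaxin gene Stx17, which acts in fusion of autophagosomes with lysosomes, had 4.36, 2.40 and 3.23 TPM (-1.11 ± 0.07, SE, not called, limma adjusted p = 0.13), but it was called below with the second table (-1.20, limma adjusted p = 0.023).

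Ranked by mean TPM, the 40 genes gave 39 neighbouring pairs, of which 17 kept their order in all 3 libraries. From Sqstm1 down to Map1lc3b the order held in each library. Between Rubcn and Atg2b most neighbours changed places between libraries, so the order of genes near the median is not resolved. Among the 5 lowest, Wipi1 exceeded Atg10 in each library, while Atg10, Atg16l2 and Atg14 were in no fixed order.

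A total of 12 differences between paralogs or alternative subunits were taken within each library on the log2(TPM + 0.1) scale. The exact sign-flip permutation test over libraries gave a 2-sided p of 0.25 for 10 of them, the smallest that 3 libraries allow, so no pair could reach 0.05. Within the ATG8 family, Gabarapl2 minus Gabarap was -3.80 ± 0.37 (SD, n = 3), Gabarapl1 minus Gabarap -2.57 ± 0.14 and Map1lc3a minus Map1lc3b -1.98 ± 0.11. As ratios, Gabarap was 13.9-fold above Gabarapl2 and 5.94-fold above Gabarapl1, and Map1lc3b was 3.95-fold above Map1lc3a. Atg14 was below Uvrag by -2.32 ± 0.11, a 4.998-fold excess of Uvrag, and Tfeb below Tfe3 by -1.87 ± 0.14. Smaller gaps of one sign in 3 of 3 libraries were Ulk1 minus Ulk2 (-0.78 ± 0.07), Wipi1 minus Wipi2 (-0.77 ± 0.12), Atg4d minus Atg4b (-0.73 ± 0.27), Atg16l2 minus Atg16l1 (-0.72 ± 0.39) and Atg4a minus Atg4b (-0.38 ± 0.22). Atg4c minus Atg4b was 0.14 ± 0.19 (exact permutation p = 0.50) and Atg2a minus Atg2b 0.00 ± 0.14 (exact permutation p = 1.0), with both signs among the libraries. In the second table Atg2a was above Atg2b in each library by 0.24 on average, and Atg4c below Atg4b by -0.21. Atg14 minus Uvrag was -2.95 there. However, Uvrag-208, not annotated protein-coding, led Uvrag in that table at 35.5%, and the protein-coding Uvrag-201 held 26.6%.

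**Figure D3:**
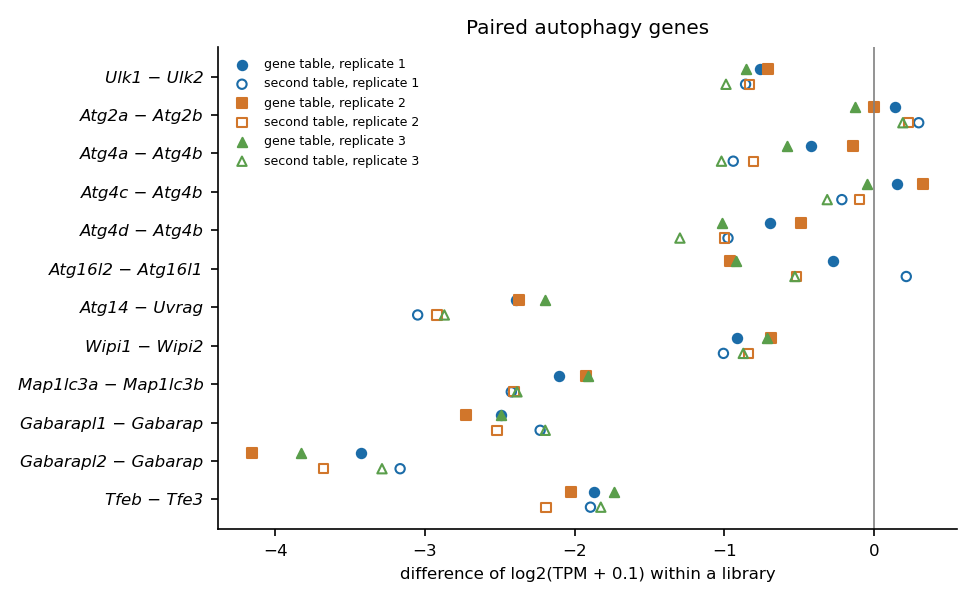
Difference between paired autophagy genes within each library on the log2(TPM + 0.1) scale, from the gene tables (filled) and from the second transcript tables (open), by replicate. Values left of zero mean that the first gene of the pair is lower. The Gabarap, Map1lc3b, Uvrag and Tfe3 pairs are separated by more than 1.5 in every library and both tables, and Atg2a minus Atg2b lies around zero.

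The deposited transcript tables split each gene's TPM into its annotated transcripts, 301 for the 40 genes with a median of 5. The leading transcript was annotated protein-coding for 38 of the 40. The exceptions were Becn1 and Atg4d, whose leading transcripts, Becn1-211 and Atg4d-203, are annotated as retaining an intron. Over all expressed protein-coding genes 4.35% had a leading transcript not annotated protein-coding, and the second table gave 4 such autophagy genes, adding Rb1cc1 and Uvrag. The same transcript led in all 3 libraries for 38 of 40 (92.5% of all genes), the exceptions being Atg16l1 and Atg9a. Both transcript tables had the same leading transcript for 36 of 40 (91.1% of all genes).

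In Becn1 the class annotated protein-coding held 11.3, 11.8 and 11.7% of the gene's TPM in replicates 1, 2 and 3. Retained-intron transcripts held 40.4, 50.5 and 48.1%, and transcripts annotated as targets of nonsense-mediated decay, the pathway that degrades messages with an early stop codon, held 48.3, 37.7 and 39.6%. The libraries thus gave a low coding share each time, while the order of the other classes changed. TPM weights short transcripts, and by expected counts the same classes held 32.9% (protein-coding), 16.03% (retained intron) and 51.0% (decay targets) on average. The second table also put Becn1-211 first, at 34.9%. Becn1-201, annotated as a decay target, held 29.2 ± 1.91% (SD, n = 3) of the gene's TPM. Becn1 exons overlap those of Cntd1 on the opposite strand, but Cntd1 was given only 2.22 to 4.95 counts per library. Restricted to transcripts annotated protein-coding, Becn1 stood at 4.35, 3.07 and 3.16 TPM in replicates 1, 2 and 3.

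Atg4d was more skewed by TPM, with 90.3, 88.9 and 85.8% in retained-intron transcripts and 9.75, 8.94 and 12.9% in the protein-coding one. By counts the protein-coding share was 31.8 ± 4.12% (SD, n = 3). Its coding transcript alone stood at 0.40, 0.23 and 0.35 TPM, under the 1 TPM filter. The overlap with Kri1 applies here too.

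In 6 of the 40 genes (15%), retained-intron transcripts held at least 10% of the TPM, against 9.46% of all genes. Besides Becn1 and Atg4d these were Pik3r4 (41.3%), Rubcn (28.3%), Atg16l2 (21.3%) and Gabarapl2 (16.7%). By expected counts the shares were 25.1% in Pik3r4, 19.0% in Rubcn, 2.89% in Atg16l2 and 7.14% in Gabarapl2. The last pair thus fell under 10%, and the share over all genes was not computed by counts. The Pik3r4 and Rubcn values depended on the quantification. Pik3r4-211 held 29.9% of the gene in the first transcript table but 0.824% in the second, and Rubcn-206 held 27.3% but 2.72%. The main retained-intron transcript of Gabarapl2 held 16.4% in the first and 39.95% in the second. In Gabarapl2 the retained share was 29.7, 7.59 and 12.7% in replicates 1, 2 and 3, highest in the replicate in which the gene's level was highest, and with coding transcripts alone the gene was at 1.11 and not called (limma adjusted p = 0.10). Decay targets held at least 10% in 5 of 40 genes, against 7.53% of all genes. Map1lc3a had 39.7% of its TPM in a transcript annotated as processed without a reading frame. The most abundant members, Sqstm1, Gabarapl1, Map1lc3b and Gabarap, had 98.1, 100, 99.6 and 96.0% in protein-coding transcripts, against a median of 97.7% over the 40. By TPM in the gene tables, the nuclear-retained RNAs Malat1, Neat1, Xist and the barely detected Kcnq1ot1 were highest in replicate 1 and lowest in replicate 2. All 40 autophagy genes were also highest in replicate 1 on that scale. Rn7sk was lowest in replicate 2 there but highest in replicate 3. In the second table Malat1 (145.5, 60.8 and 151.5 TPM) and Neat1 (13.2, 6.20 and 18.6 TPM) were highest in replicate 3, as was Rn7sk. Xist and Kcnq1ot1 stayed highest in replicate 1. The part of nuclear RNA in these shares was not tested.

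**Figure D4:**
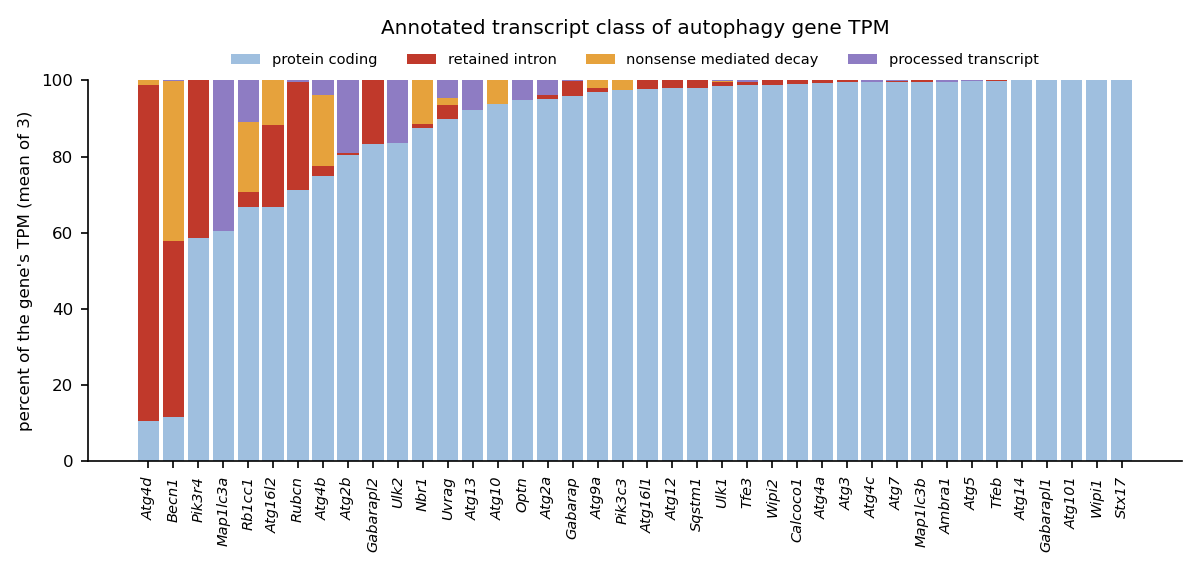
Share of each autophagy gene's TPM (vertical axis, percent, mean of 3 libraries) held by transcripts annotated as protein-coding, retained intron, target of nonsense-mediated decay or processed transcript. Atg4d and Becn1 hold 10.5 and 11.6% in protein-coding transcripts, and the median gene of the 40 holds 97.7%.

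The median autophagy gene varied slightly less between libraries than the median gene of each wider set. Their median biological coefficient of variation (BCV, edgeR's estimate of the relative spread between libraries beyond counting error) was 0.0931. It was 0.122 over all 13026 genes with enough counts, 0.102 over the tested protein-coding genes and 0.0993 over protein-coding genes in the autophagy genes' range of abundance. That range holds 8406 of the 9121 tested protein-coding genes with a BCV, so abundance was not matched. The estimates are drawn toward a trend with abundance, so low values bunch near 0.08. Atg16l2 (0.175) and Atg10 (0.173), both low, had the highest BCV. Sqstm1 (0.134) and Gabarap (0.124) were above the median of all genes despite their depth of 80260 to 102391 and 23796 to 30320 counts per library. Relative to the median gene, both were highest in replicate 2, Sqstm1 at 6.00 against 5.79 and 5.61 in replicates 1 and 3, and Gabarap at 5.32 against 4.96 and 4.94. Atg4c was the steadiest, at -0.29, -0.29 and -0.31. A chi-square test of the counts found variation beyond counting error in 29 of the 40, against 62.5% of all genes.

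**Figure D5:**
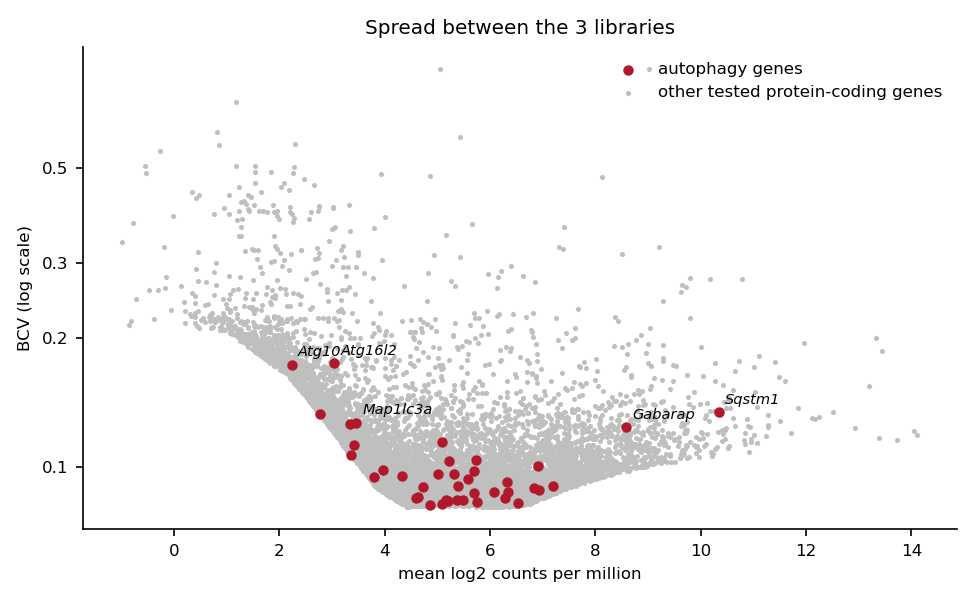
BCV (vertical axis, log scale) against mean log2 CPM (counts scaled to a common library size) for the autophagy genes (red) and the other tested protein-coding genes (grey). Most autophagy genes lie in the lower part of the cloud, and Sqstm1 and Gabarap lie above its lower edge at high abundance.

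Genes that act around the core machinery were counted from 5 further lists, chosen like the members with earlier results known. Their counts stand beside 26.3% called above and 24.5% called below over all tested genes. In the list for fusion of autophagosomes with lysosomes, 12 of 20 tested genes were called above the band and 2 below. It was led by the lysosomal membrane protein genes Lamp1 (633 ± 239 TPM) and Lamp2 (138 ± 49.2) and the small GTPase gene Rab7 (158 ± 32.1 TPM, mean ± SD, n = 3 each). The genes below were the adaptors Fyco1 (-1.50) and Rilp (-2.32). Stx17 stood at 3.33 ± 0.984 TPM, and the median over the 20 tested genes of the list was 19.1 TPM. Vamp7, also on the list, was not analysed here.

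Of 29 tested genes for control by mTORC1 and AMPK, the kinases that hold back and start autophagy, 11 were called above and 5 below. Fnip2 (70.5 ± 17.5 TPM), Rragc (66.6 ± 16.2) and Lamtor1 (60.5 ± 9.48 TPM), which act in nutrient sensing at the lysosome, were highest. Deptor (-1.43), Sesn3 (-1.78), Ddit4 (-2.23), Prkab2 (-2.25) and Mlst8 (-2.56) were below.

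In the list of other autophagy machinery 9 of 18 were called above and 1, the tethering factor gene Epg5 (-1.38), below. Sh3glb1 (89.1 ± 21.3 TPM), whose protein binds UVRAG, Tecpr1 (52.5 ± 14.2) and the interferon-inducible GTPase gene Irgm1 (42.7 ± 14.1 TPM) led it.

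Other cargo and organelle receptors had 7 of 17 called above and 4 called below. The ferritin receptor gene Ncoa4 stood at 135 ± 35.4 TPM, Tax1bp1 at 47.8 ± 12.6 TPM and Lgals8, which detects damaged vacuoles, at 35.8 ± 7.36 TPM. Among those below were Usp30 (-1.91), Nufip1 (-2.22) and Wdfy1 (-2.47). Of the regulators of autophagy transcription 7 of 12 were called above, and Zkscan3 (-1.41) and Foxo1 (-2.58) were called below. The list was led by Nfe2l2, which encodes NRF2 (145 ± 47.5 TPM), Tfec (41.9 ± 18.8) and Atf4 (38.5 ± 8.32 TPM). Tfec, of the same family as Tfeb and Tfe3, had 62.0, 39.0 and 24.7 TPM in replicates 1, 2 and 3, lowest in replicate 3. The 5 genes of these lists with a mean under 1 TPM, named after their values were seen, were Bcl2, Atg9b, Rragb, Prkaa2 and Calcoco2, the last listed at 0 in every library. Together 46 of 96 tested genes of these lists were called above and 14 below, against 26.3% and 24.5% of all tested genes. The median level of the 96 was 1.12 on the log2 scale, against -0.02 for the 40 autophagy genes and 0.00 for all tested genes.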

How the data were processed

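Total RNA sequencing of the cytosolic fraction was deposited for 3 libraries of 1 group. Per the deposited description files, reads were mapped to mm10 with GENCODE M21. The deposited gene and transcript tables, with columns named as RSEM writes them, hold expected counts and TPM, and the transcript tables hold the percent of each gene's TPM. A second deposited transcript table per library, with columns named as kallisto writes them, holds estimated counts and TPM. The sources used here give no tool versions, filters or strandedness for these tables. Rows that name no annotated gene held 0.260, 0.0933 and 0.0577% of counts and were left out.

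Levels are log2(TPM + 0.1) relative to the median, in the same library, of protein-coding genes with a mean of at least 1 TPM, tested in limma 3.58.1 (treat, band 1, Benjamini-Hochberg 0.05). A fold on this scale understates that of low genes. BCV came from edgeR 4.0.16 on rounded expected counts after filterByExpr and TMM scaling. The limma and edgeR steps were tested on simulated data. Paralog differences had exact sign-flip tests. Promoters came from RefSeq (GRCm38.p6), and near copies from blastn 2.17.0 (at least 95% identity over 200 bases). R 4.3.3, Python 3.11.15, numpy 2.4.6, pandas 2.3.3 and scipy 1.17.1 were used. Between library pairs, 43.8 to 45.9% of genes differed beyond counting error, so none was a duplicate. Alternatives were the second table, pseudocounts of 0.01 and 1, no filter or 5 TPM, rescaled TPM, TMM-scaled counts, DESeq2-style size factors for BCV and leaving out each library. The protein-coding transcripts alone were chosen as an alternative after seeing the data.

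The members and lists were chosen with earlier results of these data known. The rule for named genes was all 40 members, with values in every library for those called, the highest and lowest of each role group and both of a paralog pair. Of each other list it took the 3 highest by mean TPM and those called below, and of the markers the 3 highest macrophage genes and any other at 1 TPM or more. The values of 1 gene that this rule names are not reported here.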

Additional observations from a re-analysis of the deposited data

How the results depend on the processing

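All 8 calls above and 5 below kept their direction with either other pseudocount, rescaled TPM, TMM-scaled counts and in each set of libraries with 1 left out; Sqstm1, Gabarap, Gabarapl1 and Map1lc3b were called above under every alternative run. Calls were lost for Becn1 (1.14) and Tfe3 (1.08) with 5 TPM, for Nbr1 and Gabarapl2 with 5 TPM and the second table, for Gabarapl2 and Atg4d with a pseudocount of 1 and for Wipi1 there (-1.18). No paired analysis was possible because the libraries form 1 group. Counts of genes above and below in this section are of genes called by the test. Without 1 library, members above ranged from 7 to 8, members below from 4 to 5, the members' median from -0.04 to -0.0049, their BCV from 0.0885 to 0.103, Atg2a minus Atg2b from -0.065 to 0.071, Rubcn from -0.0063 (without replicate 1) to 0.039, and other machinery genes below ranged from 1 to 2.

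The filter sets the median gene. With no filter 26 members were above, 0 below, and their median was 1.55. Genes whose level then became positive were Atg12 (1.52), Pik3r4 (1.37), Ulk1 (1.33), Atg4c (1.27), Atg9a (1.19), Ambra1 (1.16), Atg4b (1.13), Pik3c3 (1.05), Wipi2 (0.92), Atg2a (0.81), Atg2b (0.81), Atg4a (0.75), Atg101 (0.64), Stx17 (0.46), Atg16l1 (0.41), Atg4d (0.39), Epg5 (0.19), Zkscan3 (0.16), Wipi1 (0.15), Deptor (0.14) and Fyco1 (0.073). With 5 TPM 4 members were above, the median was -0.54, and levels became negative for Optn (-0.079), Rb1cc1 (-0.38), Ulk2 (-0.39), Uvrag (-0.43), Atg5 (-0.65), Map1lc3a (-0.77), Tfeb (-0.80), Calcoco1 (-0.81), Atg13 (-0.82) and Rubcn (-0.91). The 5 genes called below drop out there, and Atg4c (-1.22), Atg9a (-1.30), Ambra1 (-1.33), Atg4b (-1.37) and Pik3c3 (-1.44) were called below. In the other lists, no filter gave 21 above and 2 below for mTORC1 and AMPK, 16 and 2 for other machinery, 12 and 0 for receptors, and 0 below for fusion and for regulators. With 5 TPM the counts above were 7 (fusion), 6 (mTORC1 and AMPK), 3 (machinery), 3 (receptors) and 3 (regulators), with 2 below for mTORC1 and AMPK and 0 for fusion, receptors and regulators. Of the 29 genes that the rule names from these lists, 15 were tested with 5 TPM, and the others dropped out.

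With the other transcript table, 10 members were below, the median was -0.38, 4 had a non-coding leading transcript, Atg4c minus Atg4b was -0.21, and levels became negative for Atg5 (-0.13), Map1lc3a (-0.32), Atg13 (-0.32), Calcoco1 (-0.35), Tfeb (-0.38) and Rubcn (-0.56). Calls below were gained by Atg2a (-1.23), Atg2b (-1.47), Atg4a (-1.22), Atg101 (-1.36), Stx17 (-1.20) and Atg16l1 (-1.55). It gave 1 fusion, 3 mTORC1 and AMPK and 0 receptor genes below. The minimum of 1 TPM was kept there, although every member's TPM was lower in that quantification. Of the 29 genes that the rule names from the other lists, 19 were tested there and kept their calls. Wdfy1, at 0.889 TPM there, and Atg14, at 0.832 TPM, were not tested. A pseudocount of 1 left 3 members and 0 machinery genes below. With protein-coding transcripts alone the members' median was -0.19, Atg4a minus Atg4b was 0.019, and Becn1 (-0.90), Map1lc3a (-0.46), Rubcn (-0.35) and Atg12 (0.029) changed sign. The median gene shifts by -0.11 on the log2 scale there, and Atg12 had 6.80 TPM, against 6.95 TPM for the whole gene. Apart from the shifts of the median gene with the filter and with protein-coding transcripts alone, the cause was not tested. Depth limits the lowest genes most, Atg10 having 290 to 345 counts per library.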
